A study of Mus musculus with 4 samples.

Results

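The cathepsins and legumain are proteases of the lysosome, and 10 of their genes, Ctsa, Ctsb, Ctsc, Ctsd, Ctsh, Ctsk, Ctsl, Ctss, Ctsz and Lgmn, were examined in mouse ventricle. They were chosen by name: every probe set, the group of oligonucleotides that reports a transcript, whose annotation gives exactly 1 gene symbol from these 10 was taken, which gave 15 probe sets of the 12422 non-control probe sets of the array, for 10 of 8251 named genes. The samples were 2 ventricles of transgenic mice with moderate, heart-specific overexpression of serum response factor (SRF) and 2 ventricles of non-transgenic mice, all at 6 months of age, each on 1 Affymetrix array. SRF binds the CArG box, a short promoter element of muscle and immediate early genes, and activates transcription there. The promoter that drives the transgene, the strain, the number of lines and whether a sample is 1 animal or a pool are not stated in the sources used here. Srf was not analysed here, and the excess of SRF was therefore not checked. Nothing in the labels says that the samples are separate animals, so the spread behind each p-value may be technical.

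Cathepsins are made as inactive precursors, carried to the lysosome by mannose 6-phosphate receptors and activated there by acid and by other proteases. Most belong to the papain family of cysteine proteases, cathepsin D is an aspartic protease, cathepsin A is a serine carboxypeptidase, and legumain cuts after asparagine and processes several cathepsin precursors. In the heart they take part in protein turnover in myocytes, and macrophages and fibroblasts use and secrete them in antigen presentation and matrix breakdown. Mice that lack Ctsl develop dilated cardiomyopathy.

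In ventricles of SRF transgenic mice, the cysteine proteases Ctss, Ctsz and Ctsl were higher than in non-transgenic ventricles, by 2.04-fold, 1.89-fold and 1.58-fold. The other 7 genes did not pass the test, among them the abundant proteases Ctsb and Ctsd and the remaining members Ctsa, Ctsc, Ctsh, Ctsk and Lgmn. Ctsh was the 1 gene whose brightest probe set was lower, at 0.778-fold. Folds are on the scale log2(signal + 9), which understates changes of dim probe sets, and a change was called at an adjusted p below 0.05 in limma with Benjamini-Hochberg adjustment over all 7453 probe sets tested. The calls of Ctss, Ctsz and Ctsl ended when the variance was modelled without a trend on signal (adjusted p = 0.0669, 0.0657 and 0.127 in limma). When dim probe sets were kept in, Ctss alone was called. In whole ventricle, more cells of a type and more RNA per cell cannot be told apart.

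Upstream sequence is available for 8 of the 10 genes in the RefSeq table of GRCm38.p6, in 10 windows that run from 250 bases before to 50 bases after an annotated start (Ctsb and Ctsh have no entry). The windows of 3 genes are shown in their upstream 250 bases, 5′ to 3′ on the strand of the gene: those of Ctss and Ctsz, because these genes had the largest rises, and that of Ctsd, because it holds 2 upstream copies of the E-box CACGTG, the core of the element bound by TFEB, a transcription factor of lysosomal genes. Capitals mark CACGTG, GAAANNGAAA (the core of an interferon-stimulated response element) and GGGCGG (a GC box), each searched on both strands. Ctss lies at chr3:95526536-95526785 (plus strand), Ctsz at chr2:174439040-174439289 (minus strand) and Ctsd at chr7:142387828-142388077 (minus strand).
Ctss: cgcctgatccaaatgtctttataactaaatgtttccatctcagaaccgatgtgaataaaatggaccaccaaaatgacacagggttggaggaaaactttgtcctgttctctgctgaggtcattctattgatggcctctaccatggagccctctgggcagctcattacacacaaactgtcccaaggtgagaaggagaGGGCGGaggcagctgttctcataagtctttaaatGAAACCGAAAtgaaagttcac
Ctsz: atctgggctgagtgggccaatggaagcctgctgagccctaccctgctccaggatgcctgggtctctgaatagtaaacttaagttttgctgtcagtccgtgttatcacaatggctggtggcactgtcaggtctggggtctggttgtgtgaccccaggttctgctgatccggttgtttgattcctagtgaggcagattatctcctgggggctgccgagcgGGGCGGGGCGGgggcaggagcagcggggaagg
Ctsd: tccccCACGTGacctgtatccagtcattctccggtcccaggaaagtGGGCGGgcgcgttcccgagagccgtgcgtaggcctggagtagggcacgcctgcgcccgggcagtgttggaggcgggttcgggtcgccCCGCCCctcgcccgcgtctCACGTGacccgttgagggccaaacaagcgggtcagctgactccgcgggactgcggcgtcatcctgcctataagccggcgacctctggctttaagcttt

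No CArG box was found in the 10 windows, against 1.63% of all 32851 windows of the table. At so low a share, finding none in 10 windows says little, and direct action of SRF on these genes was not tested. CACGTG occurred in 4 of the 10 windows, against 7.15% of all windows. It began 245 and 98 bases before the start of Ctsd, 49 bases before a start of Lgmn, 12 bases before a start of Ctsa (with a second copy after it) and 236 bases before the annotated start of Ctsl. The Ctsl window ends in a run of pyrimidines followed by CAG, the letters of a splice acceptor, so it may not be a promoter, and it is not printed. GAAANNGAAA occurred in the Ctss window alone, 21 bases before the start, against 3.44% of all windows. GGGCGG occurred in 5 windows (35.7% of all), with overlapping copies 32 and 27 bases before the start of Ctsz. GAGGAAG, a motif of the myeloid factor PU.1, occurred in the windows of Ctss, Ctsk and Ctsc (13.6% of all), and in Ctss it spans the start. Of the remaining motifs searched, CATGTG occurred in 3 windows (14.2% of all), CCAAT in 2 (37.4%), TATAAA in 2 (13.6%), TGACTCA or TGAGTCA in 0 (5.2%) and the CLEAR element, which contains CACGTG, in 0 (0.326%). Near matches to the CLEAR element around the CACGTG copies were not searched, so its count of 0 does not exclude them. All matches given here describe letters and not bound sites. Ctss and Ctsk are neighbours on chromosome 3, with 0 protein-coding genes between them in the RefSeq annotation.

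Of the 15 probe sets, 12 passed the filter that removed the dimmest 40% of the array, at least 1 for each gene. A further probe set of Ctsb and 2 of Ctsc fell below it and were not tested. Of the 12 tested, 3 were called higher, against 4.07% of all probe sets tested, and 0 were called lower, against 3.86% (7.93% in either direction; 6 of the 12 had an unadjusted p below 0.05, against 1802 of 7453). The median log2 change was 0.20 over the 12, and -0.01 over all probe sets tested. With the brightest probe set of each gene, all 10 genes had no overlap between groups (56% of all genes tested), 9 with both transgenic arrays above both non-transgenic arrays (28.2% of all genes tested) and Ctsh with both below. Over the 12 tested probe sets, 11 (91.7%) had no overlap between groups, against 55.9% of all probe sets tested. All 3 calls lay among the 7 papain-family genes, and whether these differ from the other 3 was not tested.

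**Figure D1:**
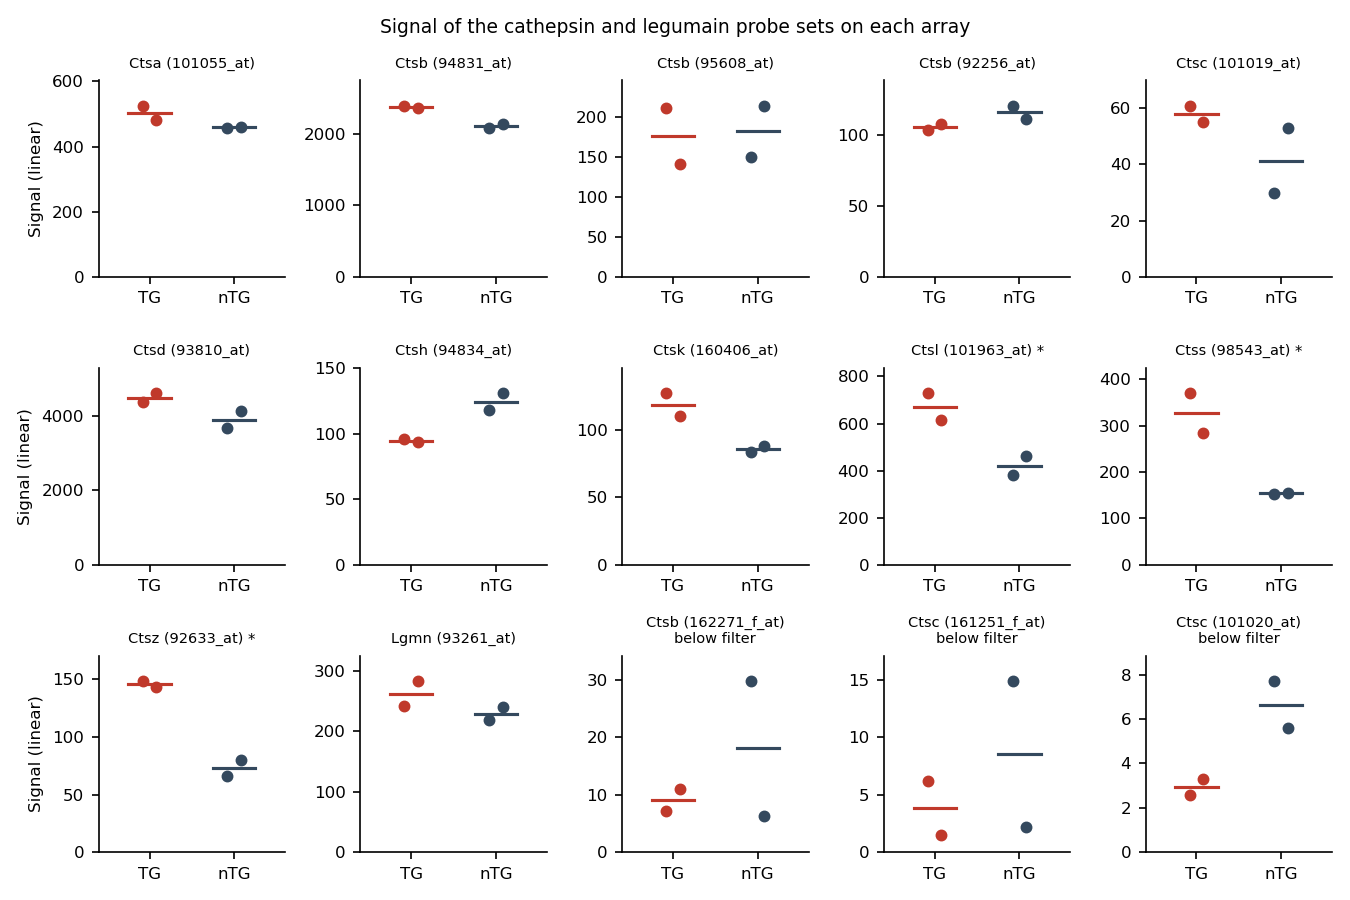
Signal (linear scale, from 0) of all 15 probe sets on each array, with transgenic (TG) arrays in red on the left and non-transgenic (nTG) arrays in dark grey on the right. Points are arrays, bars are means of 2 arrays, and an asterisk marks the 3 called probe sets, those of Ctsl, Ctss and Ctsz, in which the groups stand apart.

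Ctss encodes cathepsin S, an endopeptidase of antigen-presenting cells that stays active at neutral pH and degrades the invariant chain of class II molecules. Its signal was 369.6 and 283.7 on the transgenic arrays, against 152.9 and 155 on the non-transgenic arrays. Both transgenic arrays lay well above the non-transgenic pair, which differed little, while the transgenic arrays differed from each other. The means were 327 ± 60.7 in transgenic and 154 ± 1.49 in non-transgenic ventricle (SD, n = 2 each). The log2 change was 1.03 ± 0.16 (SE; 95% interval 0.66 to 1.41), and the adjusted p was 0.0135 (limma). A change at least this high was found in 1.49% of all probe sets tested. The call held when any 1 array was left out (adjusted p up to 0.0433 in limma).

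Ctsz encodes cathepsin Z, a carboxypeptidase of monocytes, macrophages and other cells. Its signal was 148 and 143.4 on the transgenic arrays, against 66.1 and 79.7 on the non-transgenic arrays. The groups did not overlap, and the transgenic arrays were close together. The means were 146 ± 3.25 in transgenic and 72.9 ± 9.62 in non-transgenic ventricle (SD, n = 2 each). The log2 change was 0.92 ± 0.17 (SE; 95% interval 0.52 to 1.32), and the adjusted p was 0.0231 (limma). In limma the call ended without transgenic replicate 1 (adjusted p = 0.0921), transgenic replicate 2 (0.0627) or non-transgenic replicate 1 (0.0647), and when dim probe sets were kept in (0.0566).

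Ctsl encodes cathepsin L, a broad endopeptidase of the lysosome. Its signal was 727.9 and 614 on the transgenic arrays, against 379.3 and 462.3 on the non-transgenic arrays. The lower transgenic array was still above the higher non-transgenic array, though both pairs were spread. The means were 671 ± 80.5 in transgenic and 421 ± 58.7 in non-transgenic ventricle (SD, n = 2 each). The log2 change was 0.66 ± 0.14 (SE; 95% interval 0.33 to 0.99), and the adjusted p was 0.0344 (limma). In limma the call ended without transgenic replicate 1 (adjusted p = 0.122) or non-transgenic replicate 1 (0.102), and when dim probe sets were kept in (0.0713). Ctsl was the member nearest inside the threshold, and Ctsd, at an adjusted p of 0.175 in limma, the nearest outside it.

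**Figure D2:**
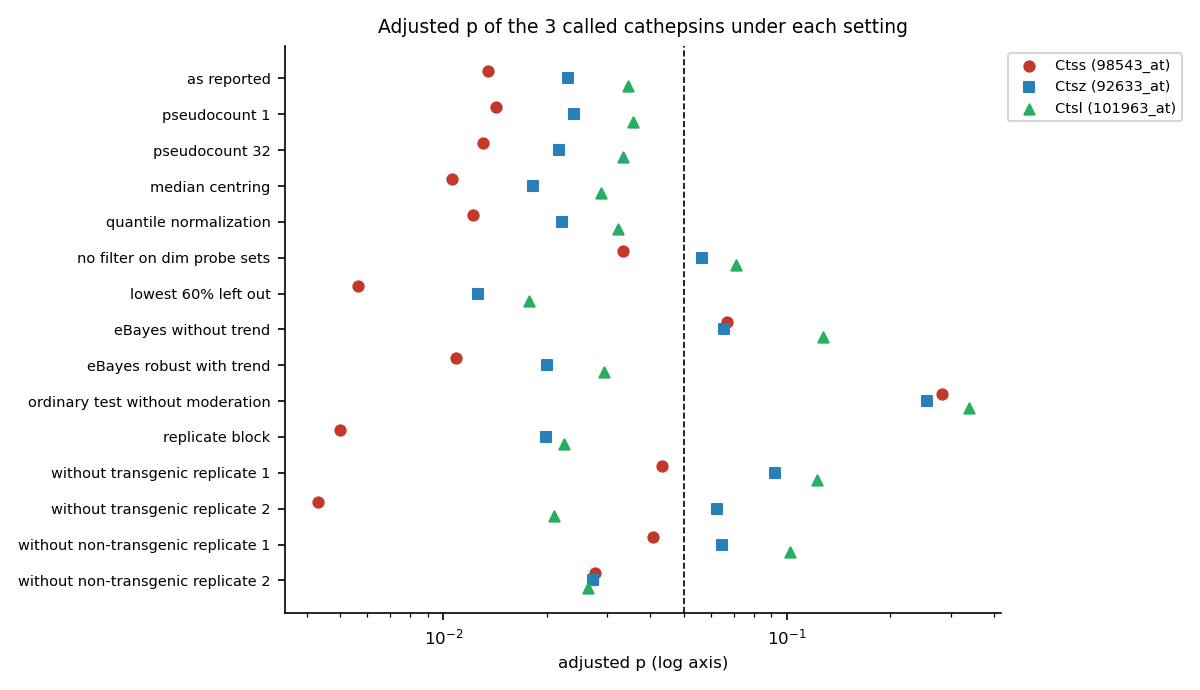
Adjusted p (log axis) of Ctss, Ctsz and Ctsl in the reported analysis and under alternative settings, with the dashed line at 0.05. Ctss lies left of the line without any 1 array, Ctsz and Ctsl cross it without transgenic replicate 1 or non-transgenic replicate 1, and Ctsz also without transgenic replicate 2; all 3 lie right of it when the variance is modelled without a trend on signal or without moderation.

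Ctsk encodes cathepsin K, known for cutting triple-helical collagen in bone resorption by osteoclasts and also made by fibroblasts. Its signal was 126.8 and 110.3 on the transgenic arrays, against 83.4 and 87.8 on the non-transgenic arrays, without overlap. The log2 change of 0.43 ± 0.17 (SE; 95% interval 0.03 to 0.82) had an adjusted p of 0.176 in limma. Ctsk did not pass the test, but its interval before adjustment for many probe sets lies above 0 and reaches 1.77-fold. Ctss, its neighbour on chromosome 3, had a larger measured change, and the difference between them was not tested.

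Ctsb encodes cathepsin B, a lysosomal protease that cuts inside proteins and removes dipeptides from their ends, and it had 4 probe sets. The brightest (94831_at) gave 2390.5 and 2351.2 on the transgenic arrays, against 2079.9 and 2127.9 on the non-transgenic arrays. The groups did not overlap and the change was small, at 0.17 on the log2 scale ± 0.07 (SE; 95% interval 0.01 to 0.34; adjusted p = 0.196 in limma). The next probe set (95608_at) gave 211.6 and 141.7 on the transgenic arrays, against 150.7 and 214.3 on the non-transgenic arrays. The groups overlap, with a log2 change of -0.05, which turned to 0.029 when arrays were centred on their medians. The third tested probe set (92256_at) gave 103.6 and 107.3 on the transgenic arrays, against 120.5 and 111 on the non-transgenic arrays, and its log2 change was -0.12 ± 0.16 (SE). The tested probe sets of Ctsb differed in sign, and none passed the test. The dim probe set 162271_f_at, of a type whose oligonucleotides can bind several related transcripts, gave 7.2 and 11 on the transgenic arrays, against 29.8 and 6.4 on the non-transgenic arrays.

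Ctsc encodes cathepsin C, a dipeptidyl peptidase that activates serine proteases of immune cell granules. Its brightest probe set (101019_at) gave 60.9 and 55.2 on the transgenic arrays, against 29.7 and 53 on the non-transgenic arrays. The non-transgenic arrays differed widely, so the log2 change of 0.45 ± 0.28 (SE; 95% interval -0.21 to 1.11) had an adjusted p of 0.371 in limma. It was 0.11 with non-transgenic replicate 1 left out and 0.79 with replicate 2 of that group left out. Both other Ctsc probe sets were dim and not tested. They gave 2.6 and 3.3 on the transgenic arrays, against 7.7 and 5.6 on the non-transgenic arrays (101020_at), and 6.2 and 1.5 on the transgenic arrays, against 14.9 and 2.2 on the non-transgenic arrays (161251_f_at).

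Ctsh encodes cathepsin H, an aminopeptidase of lysosomes. Its signal was 95.9 and 93.6 on the transgenic arrays, against 118.1 and 130.9 on the non-transgenic arrays, so the transgenic pair was lower without overlap. The log2 change of -0.36 ± 0.16 (SE; 95% interval -0.74 to 0.01) had an adjusted p of 0.222 in limma and did not pass the test. Hepatocyte transcripts also stood lower in the transgenic samples (values with the marker lists), and their part in the Ctsh signal was not tested.

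Ctsd encodes cathepsin D, the main aspartic protease of the lysosome. Its signal was 4359.4 and 4593.1 on the transgenic arrays, against 3652.9 and 4128.9 on the non-transgenic arrays. The groups did not overlap, but the gap between them was smaller than the spread of the non-transgenic pair. The log2 change was 0.20 ± 0.08 (SE; 95% interval 0.02 to 0.39), with an adjusted p of 0.175 in limma. After quantile normalization it was 0.33 and passed, with an adjusted p of 0.0361 in limma.

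Ctsa encodes cathepsin A, a carboxypeptidase that also holds beta-galactosidase and neuraminidase in a protective complex. Its signal was 525.5 and 481.8 on the transgenic arrays, against 456.1 and 461.6 on the non-transgenic arrays. Its log2 change was 0.13 ± 0.11 (SE; 95% interval -0.12 to 0.38), with an adjusted p of 0.500 in limma. Lgmn, which encodes legumain, gave 242.2 and 283.2 on the transgenic arrays, against 218.2 and 240.1 on the non-transgenic arrays. Its log2 change was 0.19 ± 0.14 (SE; 95% interval -0.14 to 0.52), with an adjusted p of 0.458 in limma. In both genes the gap between the groups was smaller than the spread of the transgenic pair, and the upper ends of the intervals were 1.30-fold for Ctsa and 1.43-fold for Lgmn.

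**Figure D3:**
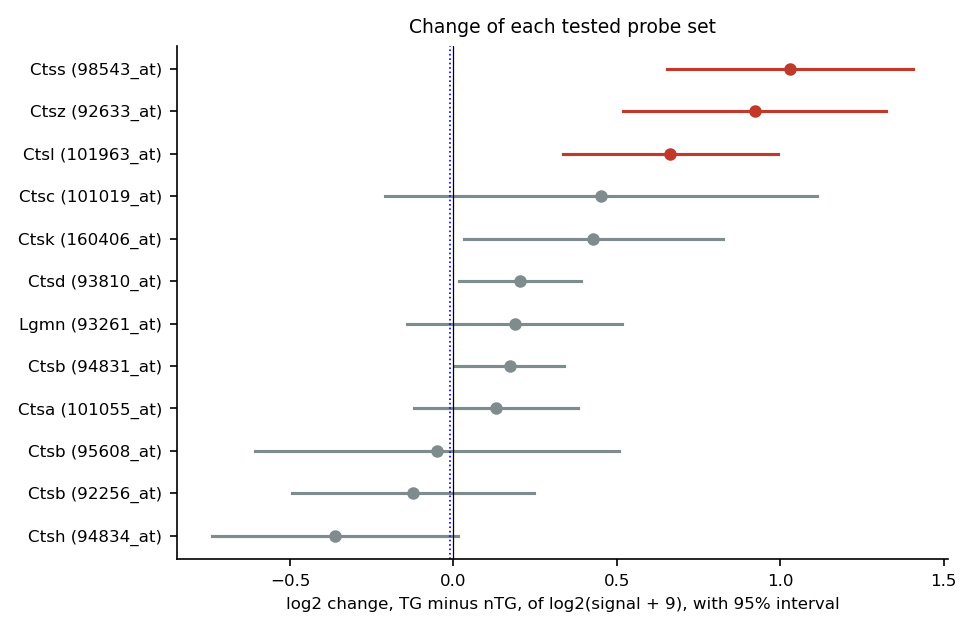
Log2 change, transgenic minus non-transgenic, of the 12 tested probe sets on the scale log2(signal + 9), with 95% intervals before adjustment for multiple tests. Called probe sets are red, the solid line marks 0 and the dotted line the median of all probe sets tested (-0.01); Ctss, Ctsz and Ctsl lie to the right of the other 9.

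Cystatins and other inhibitors of cathepsins, not only of the members, were measured with 8 probe sets for 7 genes, and 5 of the probe sets were tested. Cst3, which encodes cystatin C, the secreted inhibitor of cysteine cathepsins, rose 1.39-fold. Its signal was 5300.3 and 5262.5 on the transgenic arrays, against 3670.2 and 3923.5 on the non-transgenic arrays, with a log2 change of 0.48 ± 0.07 (SE) and an adjusted p of 0.00898 in limma. The groups were far apart relative to their spread, and the log2 change was 0.43 to 0.52 when single arrays were left out. The call ended in limma when the variance was modelled without a trend on signal (adjusted p = 0.135). It also ended in an ordinary linear model without moderation (adjusted p = 0.235). A second Cst3 probe set, the cytosolic inhibitor Cstb and the serpin Serpinb6a did not pass, with log2 changes of 0.60 (adjusted p = 0.0866 in limma), 0.28 (0.156) and 0.61 (0.0502). Kng1, the kininogen of plasma, which carries cystatin domains and is made by the liver, gave 8.9 and 10.2 on the transgenic arrays, against 247.7 and 312 on the non-transgenic arrays. It fell by 3.95 ± 0.21 (SE) on the log2 scale, with an adjusted p of 0.000216 in limma, beside the hepatocyte transcripts described with the marker lists.

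Of 5 further cathepsin genes on the array, Ctse, Ctsf, Ctsg, Ctsw and Cts7, only Ctse and Ctsf had probe sets above the filter. None of their 3 tested probe sets passed limma (smallest adjusted p = 0.510, for Ctse; smallest and largest log2 changes -0.20 and 0.05). Ctsf, a papain-family cathepsin, gave 200.1 and 207.6 on the transgenic arrays, against 201.8 and 191.9 on the non-transgenic arrays, which overlap.

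Class II antigen presentation, the pathway in which cathepsin S acts on the invariant chain, had 3 of 10 tested probe sets higher and 0 lower, with a median log2 change of 0.46. This count and those of the lists below are read against all probe sets tested, of which 4.07% were called higher and 3.86% lower. Cd74, which encodes that chain, gave 1712.6 and 1712.1 on the transgenic arrays, against 777.6 and 975.1 on the non-transgenic arrays, a log2 change of 0.97 ± 0.12 (SE; adjusted p = 0.00551 in limma). H2-Aa, a class II chain, rose by 0.95 ± 0.11 (SE, adjusted p = 0.00528 in limma). The calls of Cd74 and H2-Aa ended in limma when the variance was modelled without a trend on signal (adjusted p = 0.067 and 0.065). Both also ended in an ordinary linear model without moderation (adjusted p = 0.277 and 0.243). The groups overlapped for the class II chains H2-Ab1 and H2-Eb1, which did not pass (adjusted p = 0.515 and 0.526 in limma). H2-DMb1, a chain of the peptide loading factor, gave 129.4 and 157.1 on the transgenic arrays, against 43.3 and 78.5 on the non-transgenic arrays, and rose by 1.16 ± 0.27 (SE; adjusted p = 0.0438 in limma). Its oligonucleotides may also bind its close relative H2-DMb2, and its call ended without transgenic replicate 1 (adjusted p = 0.0612 in limma), transgenic replicate 2 (0.104) or non-transgenic replicate 1 (0.089).

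Markers of macrophages, in which several cathepsins are abundant, were higher in 5 of 12 tested probe sets and lower in 0, with a median log2 change of 0.65; 15 further probe sets of the list were below the filter. The summed signal of the 18 measured macrophage genes was 4156 and 4311 on the transgenic arrays, against 2575 and 2839 on the non-transgenic arrays. Lyz2, lysozyme, rose by 0.66 ± 0.11, C1qc by 0.72 ± 0.12, C1qb, a complement subunit like C1qc, by 0.81 ± 0.14 and the adaptor Tyrobp by 0.73 ± 0.15 (log2, SE; adjusted p from 0.0172 to 0.0330 in limma). Leaving out single arrays ended each of these calls, with adjusted p in limma of up to 0.0752 for Lyz2, 0.0559 for C1qc, 0.0506 for C1qb and 0.104 for Tyrobp; C1qb and C1qc lost theirs without non-transgenic replicate 1, Lyz2 without that array or transgenic replicate 1, and Tyrobp without either of these or transgenic replicate 2. Adgre1, the F4/80 antigen of macrophages, gave 31.5 and 38.3 on the transgenic arrays, against 8.6 and 9.9 on the non-transgenic arrays, below the filter and untested, while its second, dimmer probe set gave 0.6 and 8.4 on the transgenic arrays, against 7.6 and 5.6 on the non-transgenic arrays. Of the 15 untested probe sets of the list, 8 had a positive and 7 a negative log2 change. The common leukocyte antigen Ptprc was between 1 and 11.9 on all 4 arrays in its 3 probe sets. The part of these cells in the signals of Ctss, Ctsz and Ctsl was not tested.

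Fibroblast markers were higher in 10 of 20 tested probe sets and lower in 0, with a median log2 change of 0.56. Their summed signal was 19660 and 18982 on the transgenic arrays, against 13284 and 13077 on the non-transgenic arrays. Postn, the matricellular protein periostin, rose by 2.04 ± 0.13 (log2, SE, adjusted p = 0.000604 in limma). The brighter probe set of Col1a1, a substrate chain of cathepsin K, rose by 1.07 ± 0.09 (log2, SE, adjusted p = 0.00139 in limma). A dimmer Col1a1 probe set rose by 0.25 and did not pass (adjusted p = 0.227 in limma). The tested probe sets of Pdgfra differed in sign, at -0.51 and 0.75, and neither passed (adjusted p = 0.106 and 0.118 in limma). The value of -0.51 was the lowest of the 20 tested, of which 10 did not pass. Of 13 tested cardiomyocyte probe sets 2 were higher and 6 lower, and their summed signal was 82197 and 82206 on the transgenic arrays, against 97696 and 96471 on the non-transgenic arrays, so the markers of the labelled tissue were bright on all 4 arrays. Smooth muscle and pericyte markers had 1 of 7 tested probe sets higher and 0 lower, with a median log2 change of -0.17. The higher one was Acta2, smooth muscle actin, which rose by 1.85 ± 0.10 (log2, SE, adjusted p = 0.000215 in limma). The other tested probe sets of this list lay between -0.27 and 0.16, and none passed. Endothelial markers had 1 higher and 1 lower of 12. Adipocyte markers had 0 higher and 1 lower of 3; this was Adipoq, adiponectin, which gave 73.8 and 74.6 on the transgenic arrays, against 175.2 and 237.8 on the non-transgenic arrays (adjusted p = 0.00898 in limma). Lymphocyte and erythroid markers had 0 called in limma, of 3 tested probe sets each (smallest adjusted p = 0.101 and 0.0887).

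Hepatocyte transcripts were lower in 9 of 11 tested probe sets and higher in 0. Their summed signal was 307 and 388 on the transgenic arrays, against 2802 and 5315 on the non-transgenic arrays. Apoa1, an apolipoprotein, gave 10.2 and 11.5 on the transgenic arrays, against 505.3 and 836.4 on the non-transgenic arrays. Liver-type signals were higher on both non-transgenic arrays, with the larger sum on replicate 2, and the part of such RNA in the member signals, several of which the liver also expresses, was not tested. The log2 changes of Ctss, Ctsz and Ctsl were 1.04, 1.04 and 0.80 without non-transgenic replicate 2, with all 3 called in limma. They were 1.02, 0.80 and 0.52 without non-transgenic replicate 1, which also carried liver-type signal, with Ctss alone called.

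**Figure D4:**
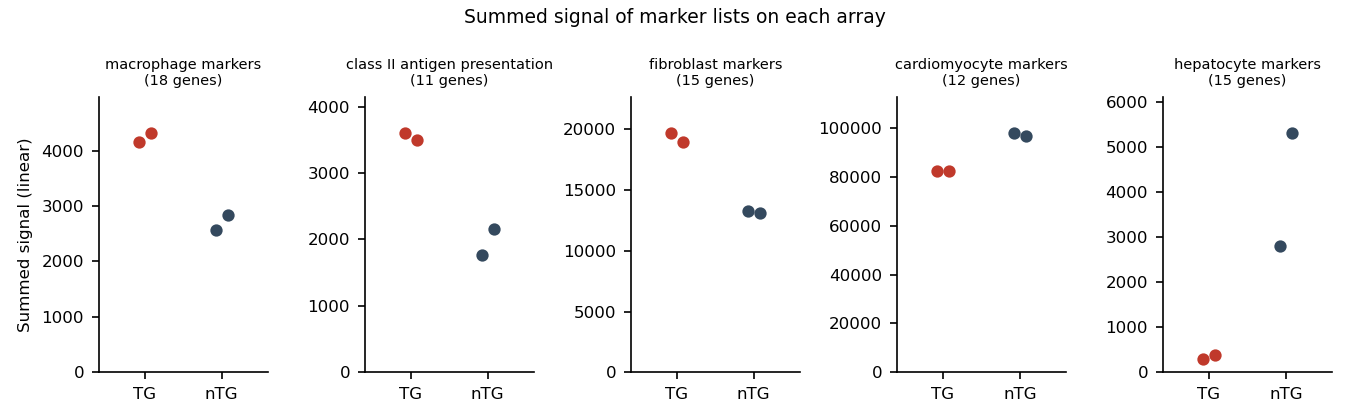
Summed signal (linear scale, from 0) of 5 lists on each array, with 1 probe set for each gene; transgenic (TG) arrays are red on the left and non-transgenic (nTG) arrays dark grey on the right. Macrophage, class II and fibroblast sums are higher, and cardiomyocyte and hepatocyte sums lower, on both transgenic arrays.

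Other hydrolases of the lysosome did not move in a common direction. Of 27 tested probe sets 1 was higher, 2 were lower and 24 did not pass, with a median log2 change of 0.04. Gaa, the acid alpha-glucosidase that breaks down lysosomal glycogen, gave 648.2 and 823 on the transgenic arrays, against 1210.5 and 1137.8 on the non-transgenic arrays. It fell by 0.68 ± 0.13 (SE; adjusted p = 0.0237 in limma), a call that ended without transgenic replicate 1 (adjusted p = 0.0603) or non-transgenic replicate 1 (0.0829). Gusb, beta-glucuronidase, rose by 0.69 ± 0.16 and the sphingomyelinase Smpd1 fell by 0.30 ± 0.07 (SE; adjusted p = 0.0473 for each in limma). In limma both of these calls ended without any 1 array (adjusted p up to 0.192 and 0.185), and that of Smpd1 after median centring (0.111) or quantile normalization (0.118).

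Among 21 tested probe sets for lysosomal membrane proteins, 0 were higher, 1 was lower and 20 did not pass, with a median log2 change of 0.06. The lower one was Npc1, the cholesterol exporter of the lysosome, which gave 418.6 and 387.3 on the transgenic arrays, against 657.5 and 616.5 on the non-transgenic arrays. It fell by 0.65 ± 0.11 (SE; adjusted p = 0.0161 in limma, and 0.0571 without non-transgenic replicate 1).

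**Figure D5:**
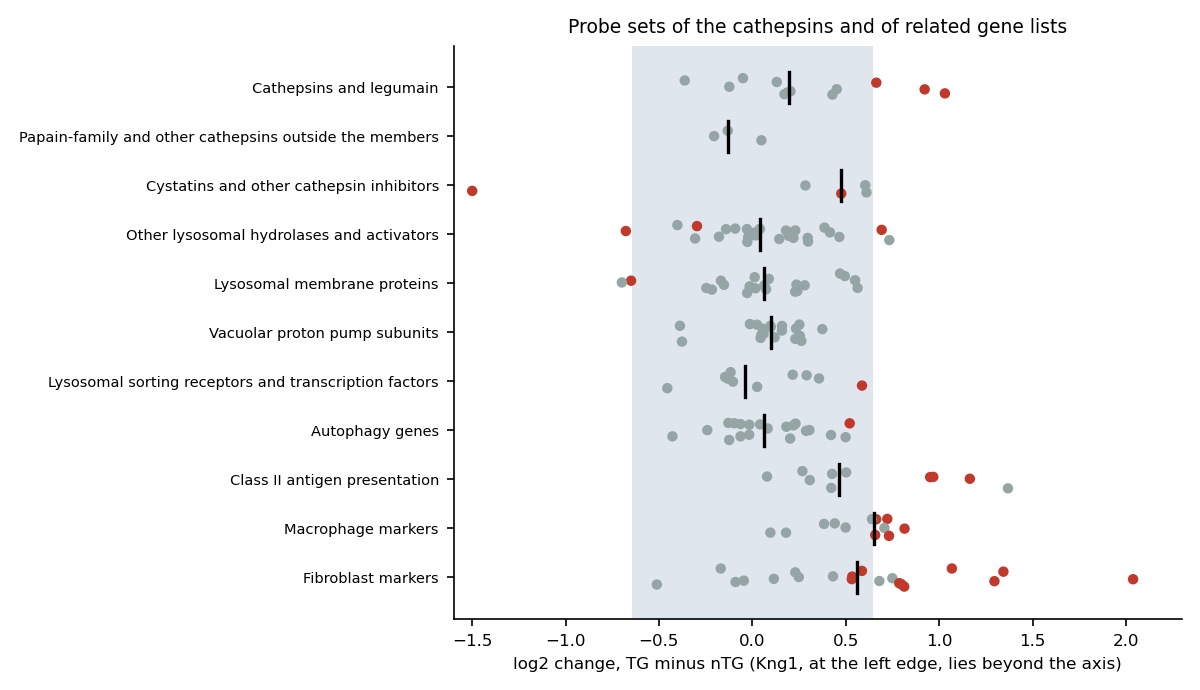
Log2 change, transgenic minus non-transgenic, of the tested probe sets of the cathepsins and legumain, of 8 lists of related genes and of macrophage and fibroblast markers. Each point is a probe set (red where called), black bars are list medians, and the shaded band holds the middle of all probe sets tested, between their percentiles 5 and 95 (-0.64 and 0.64); Ctss, Ctsz and Ctsl lie at or beyond its upper edge, and Kng1 (-3.95) is drawn at the left edge.

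Across the 4 arrays, the genes whose pattern was nearest to that of Ctss, the member with the smallest p, were Strn, Csrp1, Emp1, H2-Aa and Ifrd1, with root mean square differences of 0.06, 0.06, 0.07, 0.07 and 0.09 between the centred log2 values. Csrp1, a LIM protein, gave 324.8 and 278.7 on the transgenic arrays, against 147.6 and 148.7 on the non-transgenic arrays. Like Ctss, it was highest in transgenic replicate 1 and nearly equal in the non-transgenic pair. With 4 arrays in 2 groups, nearness reflects mostly the size of the group difference.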

How the data were processed

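Biotin-labelled total RNA of 2 transgenic and 2 non-transgenic ventricles was hybridised to Affymetrix arrays, per the labels' protocols. The authors deposited 1 signal intensity for each of 12488 probe sets and array, on a linear scale. Signal software, scaling and detection calls are not stated in the sources used here; trimmed means of 149.5 to 149.9 on all arrays are what scaling to a common target gives, which hides a change shared by most RNA. Array medians were 49.0 and 50.6 on the transgenic and 53.9 and 52.3 on the non-transgenic arrays, and log2 signals correlated at 0.981 within the transgenic pair, 0.973 within the non-transgenic pair and 0.961 to 0.964 across groups (over probe sets). The number of arrays limits the precision.

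After 66 control probe sets were left out, 10833 probe sets had 1 gene symbol in the platform annotation, 396 had several and 1193 were not listed. Gene numbers of 10817 matched RefSeq, with 0 symbols changed. Intensities were transformed to log2(signal + 9), 9 being the 20th percentile rounded. The dimmest 40% of probe sets by their mean on all arrays were removed, and groups were compared by lmFit and eBayes (variance trend on signal, prior of 5.05 and residual of 2 degrees of freedom) in limma 3.58.1 (R 4.3.3). Tests were two-sided, with p adjusted over 7453 probe sets by Benjamini and Hochberg. Errors of changes are moderated SEs. With 2 arrays against 2, an exact permutation test could not go below p = 0.333 and was not used. The fit was also run on arrays simulated from its own means and fitted spread, which cannot check the choice of variance model.

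The members, gene lists and tests were chosen with earlier results of these data known, and the motifs after the values were seen. Named genes are all members, and up to 4 called probe sets per direction of each list (or the 1 with the smallest p), of which those that bear on the members are given. Adgre1, Ptprc, Ctsf, Cstb, Serpinb6a, Pdgfra, H2-Ab1, H2-Eb1 and further probe sets of Cst3 and Col1a1 fall outside this rule. They were chosen after their values were seen. Alternatives were other pseudocounts (1 and 32), scalings, filters, variance models, a threshold of 0.10, a replicate block and leaving out each array. No sequences of the array's oligonucleotides or of the proteins were used.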

Additional observations from a re-analysis of the deposited data

How the results depend on the processing

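Of the 12 tested member probe sets, 3 were called, 4 after quantile normalization (Ctsd added), 1 without the filter on dim probe sets, and 0 with eBayes run without a trend or with an ordinary linear model (5 at an unadjusted p below 0.05 in each). Leaving out 1 array gave 1 to 3. Over all probe sets 591 were called, 329 without the filter, 78 without the trend, 0 with the ordinary model (1175 unadjusted) and 961 at a threshold of 0.10; leaving out 1 array gave 316 (without transgenic replicate 1) to 465, with 357 without non-transgenic replicate 1. Over the 8 related lists 11 of 115 were called, 6 without the filter, 1 without the trend, 0 with the ordinary model (22 unadjusted) and 19 at 0.10; leaving out 1 array gave 6 (without transgenic replicate 1) to 10. The share of higher among all called probe sets was 51.3%, and 66.8% after median centring; among the related lists it was 63.6% and 76.9%. The log2 changes of Ctss, Ctsz and Ctsl stayed positive under all 15 alternatives, at 0.84 to 1.22, 0.76 to 1.04 and 0.52 to 0.80. The Ctsb probe set 95608_at changed sign after median centring (0.029) and without transgenic replicate 2 or non-transgenic replicate 2 (-0.33 to 0.22 when single arrays were left out), and the Ctse probe set 93860_i_at without non-transgenic replicate 1 (-0.41 to 0.005). Replicate numbers are shared by the groups but are not said to pair samples: deviations of same-numbered arrays correlated at -0.06, and with number as a replicate block 3 members, 14 of the related lists and 693 probe sets were called. The causes of these shifts were not tested.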

Other observations

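The other lists of the lysosomal and autophagic system are read against the 7.93% of all probe sets that were called in either direction. Of 20 tested probe sets of autophagy genes 1 was higher and 0 lower, with a median log2 change of 0.06. Sqstm1, the cargo receptor p62, gave 2449 and 2474.6 on the transgenic arrays, against 1719.7 and 1706.3 on the non-transgenic arrays. The groups were far apart relative to their spread, with a rise of 0.52 ± 0.07 (log2, SE, adjusted p = 0.00898 in limma). The rise was 0.51 to 0.53 when single arrays were left out. The call ended in limma when the variance was modelled without a trend on signal (adjusted p = 0.114). It also ended in an ordinary linear model without moderation (adjusted p = 0.141). Among 10 tested probe sets of lysosomal sorting receptors and transcription factors, Ap3d1, a subunit of an adaptor that sorts lysosomal membrane proteins, rose by 0.59 ± 0.12 (adjusted p = 0.0298 in limma). Its call ended in limma without transgenic replicate 1 (adjusted p = 0.0954), transgenic replicate 2 (0.0795) or non-transgenic replicate 2 (0.077). Subunits of the vacuolar proton pump, which acidifies the lysosome, had 0 of 19 tested probe sets called (smallest adjusted p = 0.158 in limma, for Atp6v0e), with a median log2 change of 0.10. Atp6v0e gave 382.3 and 310.6 on the transgenic arrays, against 264.4 and 263.3 on the non-transgenic arrays, without overlap.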
